A study of Homo sapiens with 34 samples.

Results

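Chromosome 20 held 717 of the 10385 peaks that were called with 6 Flag-tagged constructs in SW872, a human liposarcoma cell line. They were taken by position alone: every peak whose chromosome column reads 20 was kept, whatever its strength. Of the other peaks, 9178 lay on other chromosomes and 490 on unplaced scaffolds. The chromosome 20 peaks numbered 291 with YAP5SA, 269 with YAP-TFE3, 71 with TAZ-CAMTA1, 70 with TAZ4SA, 12 with TFE3 and 4 with CAMTA1. The list from empty vector (EV) cells, made with IgG in place of the Flag antibody, held no peak on chromosome 20. That list is very short, since with it the number of peaks rises only from 10385 to 10414. Its lack of a peak on this chromosome therefore says little.

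TAZ and YAP are transcriptional co-activators at the end of the Hippo pathway. They do not bind DNA themselves and reach it through TEAD transcription factors, mostly at enhancers far from transcription start sites. In epithelioid hemangioendothelioma, a vascular sarcoma, gene fusions join the TEAD-binding start of TAZ to the end of CAMTA1, a calmodulin-binding transcription activator, or the same part of YAP to the end of TFE3. TFE3 is a basic helix-loop-helix leucine zipper factor of the MiTF family, which binds E-box sequences of lysosomal and autophagy genes among others. Each fusion was studied beside an activated form of its first parent, in which serines that LATS kinases phosphorylate were replaced by alanine (TAZ4SA, YAP5SA), and beside its second parent at full length (CAMTA1, TFE3).

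Chromatin immunoprecipitation followed by sequencing (ChIP-seq) was done on cells that stably carried a Flag-tagged construct or the EV. Of 34 libraries, 18 came from Flag immunoprecipitation (3 per construct), 2 from IgG immunoprecipitation of EV cells and 14 from input chromatin (2 per construct and 2 from EV cells). The authors pooled the replicates before calling peaks, so each construct has a single list, no spread between replicates can be given, and every interval here covers counting error only. The Flag antibody is directed at the tag of the introduced protein. No library came from Flag immunoprecipitation of EV cells, so its binding to anything else cannot be judged. Per the labels, CAMTA1 cells were collected before confluence and all others near it, while the study's methods give near confluence for all. No peak is given a gene or a sequence, because the positions are those of GRCh37 and the reference at hand was GRCh38: 45 of the 10414 peaks of all 7 lists reached beyond the last base that chromosome has in GRCh38.

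Among the peaks on chromosomes 1 to 22 and X, chromosome 20 had 7.75% of the YAP5SA peaks (291 of 3754; 95% Wilson interval 6.94% to 8.65%) and 8.06% of the YAP-TFE3 peaks (269 of 3336; 7.19% to 9.04%). Its share was 6.0% with TAZ4SA (70 of 1166; 4.78% to 7.52%) and 6.0% with TAZ-CAMTA1 (71 of 1184; 4.78% to 7.50%). By comparison, the supplied assembly gives chromosome 20 a share of 2.13% of the sequence of these chromosomes and 2.73% of their protein-coding genes. All 4 long lists were therefore denser on chromosome 20 than its length or gene number would give, and in each of the 4 it was the densest of the 23 chromosomes. Peaks per Mb were 4.04 times those of all other chromosomes with YAP-TFE3, 3.87 times with YAP5SA, 2.94 times with TAZ4SA and 2.94 times with TAZ-CAMTA1. In the lists of the full-length second parents chromosome 20 was not the densest chromosome. CAMTA1 had 2.56% of its chromosome peaks there (4 of 156; 1.00% to 6.41%) and TFE3 4.01% (12 of 299; 2.31% to 6.88%), and chromosome 20 ranked 10th and 6th in density in these lists. Their peaks per Mb were 1.21 and 1.92 times those of all other chromosomes. The TFE3 interval lay above the 2.13% of sequence but included the 2.73% of genes. The CAMTA1 and TFE3 intervals overlapped those of the TAZ lists and lay below those of the YAP lists. Since the peaks were chosen by the chromosome, these shares describe the set and were not tested.

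The share on chromosome 20 was lower among the strongest peaks of a list than among the weakest, though for all long lists but YAP-TFE3 this lay within counting error. With TAZ4SA, chromosome 20 held 12 of the 291 peaks that formed the 25% with the highest −log10 q (4.12%) and 23 of the 291 that formed the 25% with the lowest (7.90%), a difference of −3.78 points (−7.85 to 0.135). With TAZ-CAMTA1 these shares were 4.39% and 7.77%, and with YAP5SA they were 7.78% (73 of 938) and 9.49% (89 of 938), and the interval of each of these differences included 0 as well. With YAP-TFE3 they were 6.0% (50 of 834) and 9.47% (79 of 834), a difference of −3.48 points (−6.08 to −0.912). Even the strongest 25% of every long list held a larger share on chromosome 20 than the 2.13% of sequence.

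The local background of the peaks differed between the TAZ lists and the YAP lists. The background at a summit, in scaled fragments per base, is what the peak caller expects there, and it never falls below the mean over the genome; it was recovered from the deposited fold enrichment and p-value of each peak. With TAZ4SA, 67 of 70 chromosome 20 peaks had a background above the genome mean (95.7%; 88.1% to 98.5%), against 60.8% on the other chromosomes, a difference of 34.9 percentage points (95% Newcombe interval 26.8 to 39.0). With TAZ-CAMTA1 it was 66 of 71 (93.0%; 84.6% to 97.0%) against 55.8%, a difference of 37.1 points (28.2 to 42.1). All 4 CAMTA1 peaks lay above the mean, against 51.7% elsewhere.

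With the YAP constructs, whose lists rest on a higher coverage, no such difference was detectable. With YAP5SA 56 of 291 chromosome 20 peaks were above the genome mean (19.2%), against 20.7% elsewhere, and the interval of the difference ran from −5.81 to 3.62 points. With YAP-TFE3 it was 74 of 267 peaks with a recovered background (27.7%), against 25.5%, with an interval from −3.05 to 8.08 points. With TFE3 it was 3 of 12, against 33.5%. Mean coverage before scaling, recovered in the same way, was lowest with CAMTA1 (2.21 fragments per base), TAZ4SA (2.33) and TAZ-CAMTA1 (2.52). It was higher with TFE3 (8.61), YAP-TFE3 (10.5) and YAP5SA (10.7). Fragments were scaled down in the TFE3, YAP-TFE3 and YAP5SA lists and left unscaled in the CAMTA1, TAZ4SA and TAZ-CAMTA1 lists. The background is compared after this scaling. Construct family, depth and scaling thus cannot be told apart in this contrast, and their parts in it were not tested.

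In fragments per base, the median background at chromosome 20 peaks was 3.10 with TAZ4SA (2.98 to 3.45) and 2.60 at peaks elsewhere, a ratio of 1.20 (1.15 to 1.33). With TAZ-CAMTA1 the medians were 3.27 and 2.66, a ratio of 1.23 (1.18 to 1.35). Across the 23 chromosomes, peak density and the share of peaks above the genome mean rose together in both TAZ lists, with a Spearman correlation of 0.63 for TAZ4SA and 0.69 for TAZ-CAMTA1; it was 0.42 for YAP5SA and 0.36 for YAP-TFE3. The points of each correlation come from the same pooled libraries, and the correlations are descriptions. On chromosome 13, 14 of 17 TAZ4SA peaks (82.4%) were above the genome mean, at 0.386 times the mean density. The part of the local background in the number of chromosome 20 peaks was not tested.

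**Figure D1:**
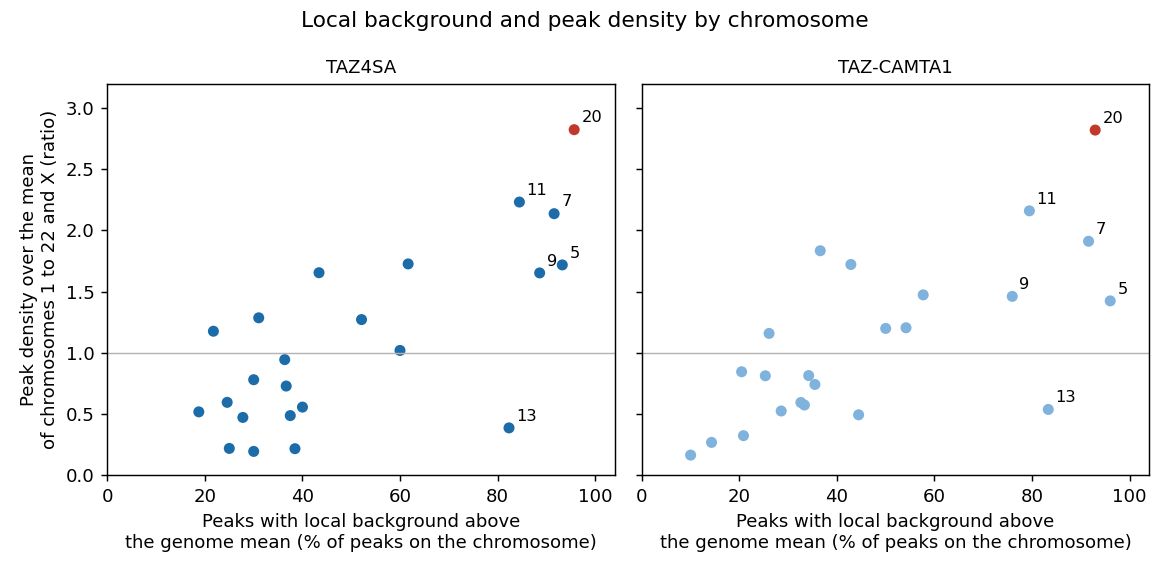
Each point is a chromosome; the x axis gives the percentage of its peaks whose local background exceeds the genome mean, and the y axis its peak density as a ratio to the mean of chromosomes 1 to 22 and X (grey line at 1), for TAZ4SA (left) and TAZ-CAMTA1 (right), with chromosome 20 in red. Chromosome 20 is the densest in both lists, at 2.82 times the mean in each, and chromosomes 5, 7, 9 and 11 are also far to the right and above the line while chromosome 13 is far to the right and below it.

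Along the chromosome the peaks covered nearly its whole length and left a wide empty stretch in its middle. Overlapping peaks of the 6 construct lists were joined into 474 sites, of which the first began at position 271725 and the last ended at 62318956. The longest gap between neighbouring sites ran from 25605129 to 30073601, 4.47 Mb with no peak of any construct, and both 2 Mb bins inside it (26 to 28 Mb and 28 to 30 Mb) were empty. These were the only empty bins of 32. Multi-mapping reads and greylisted regions had been taken out by the authors. Whether a peak could have been called in the empty stretch was not tested. Before the gap 169 sites stood at 6.60 per Mb and after it 305 sites at 9.46 per Mb. Each long list was split by the gap in much the same way, since 24 of 70 TAZ4SA peaks (34.3%), 22 of 71 TAZ-CAMTA1 peaks (31.0%), 105 of 291 YAP5SA peaks (36.1%) and 93 of 269 YAP-TFE3 peaks (34.6%) lay before it. The next longest gaps ran from 13010966 to 15458412 and from 6630612 to 8995816.

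The fullest bins were largely common to the 4 long lists. The bin from 48 to 50 Mb was the fullest with TAZ4SA (7 peaks) and with YAP-TFE3 (28 peaks), and held 18 YAP5SA and 6 TAZ-CAMTA1 peaks. The bin from 4 to 6 Mb was the fullest with YAP5SA (20 peaks), was level with that from 42 to 44 Mb as the fullest with TAZ-CAMTA1 (7 peaks each), and held 20 YAP-TFE3 and 5 TAZ4SA peaks. The next bins were those from 42 to 44 Mb, with 19 YAP5SA and 17 YAP-TFE3 peaks, from 52 to 54 Mb, with 18 and 16, and from 32 to 34 Mb, with 15 and 19. With TAZ4SA, 5 peaks lay in each of the bins from 4 to 6, 30 to 32 and 36 to 38 Mb. The median bin held 9 YAP5SA peaks, 7.5 YAP-TFE3 peaks, 2 TAZ4SA peaks and 2 TAZ-CAMTA1 peaks.

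Over the 32 bins the counts of any pair of long lists had Spearman correlations from 0.69 (TAZ4SA and YAP-TFE3) to 0.83 (YAP5SA and YAP-TFE3), given as a description because neighbouring bins and shared background are not independent. Some bins departed from the common profile, and 2 were singled out after their values were seen. The bin from 10 to 12 Mb held 13 YAP5SA peaks and 2 YAP-TFE3 peaks, with a single peak each of TAZ4SA and TAZ-CAMTA1. The bin from 36 to 38 Mb held 17 YAP5SA and 5 YAP-TFE3 peaks. In the opposite direction, the bin from 48 to 50 Mb held 18 YAP5SA and 28 YAP-TFE3 peaks, beside 291 and 269 on the whole chromosome.

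**Figure D2:**
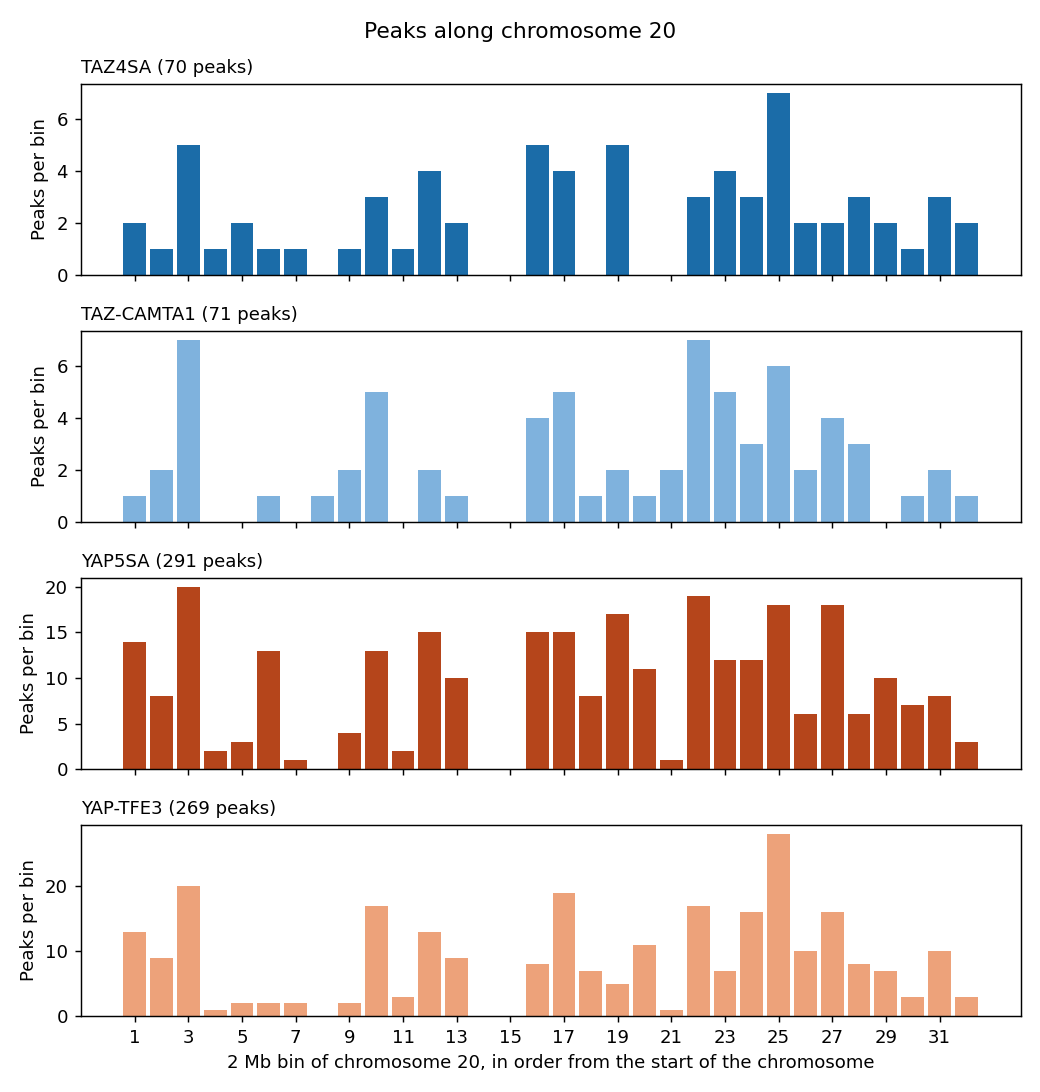
Bars give the number of peaks (y axis) in each 2 Mb bin of chromosome 20 (x axis, bins 1 to 32 in order), with a panel for each of the 4 long lists and a scale of its own in each panel. Bins 14 and 15 are empty in all 4 panels, bins 3 and 25 are high in all 4, and bin 6 holds 13 peaks with YAP5SA and 2 with YAP-TFE3.

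Sites on chromosome 20 were crowded. The median gap between neighbouring sites was 42.0 kb, against 96.3 kb on the other chromosomes, and 25% of the gaps were at or below 8.50 kb. A crowded segment was defined as a run of at least 5 sites with no gap over 50 kb. Chromosome 20 had 21 such segments, 27.6 kb to 245 kb long and 2.13 Mb in all. They held 170 of the 474 sites (35.9%; 31.7% to 40.3%), against 16.8% of the sites on other chromosomes, a difference of 19.0 points (14.7 to 23.6). With a gap limit of 25 kb the shares were 18.6% and 7.40%, and with 100 kb they were 51.3% and 30.9%. Chromosome 20 had the most sites per Mb of the 23 chromosomes, 7.36, and the part of this density in the crowding was not tested. By share of sites in crowded segments it came after chromosome 13 (39.9%, at 1.51 sites per Mb) and before chromosomes 5 (34.8%, at 5.74), 19 (44 of 191 sites, at 3.26) and 11 (118 of 513 sites, at 3.80).

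Every crowded segment held peaks of at least 2 constructs. All 21 held peaks of both YAP5SA and YAP-TFE3, 17 held a TAZ4SA peak, 17 held a TAZ-CAMTA1 peak, and 14 held all 4. YAP5SA and YAP-TFE3 supplied 291 and 269 of the 717 chromosome 20 peaks. Whether segments held both more often than the length of these lists would give was not tested. No matching counts are given for crowded segments on other chromosomes. YAP5SA had more peaks than YAP-TFE3 in 11 segments, fewer in 8 and as many in 2. Segments took 37.5% of the YAP5SA peaks of chromosome 20 (109 of 291), against 20.2% on other chromosomes, and 37.5% of the YAP-TFE3 peaks (101 of 269), against 18.4%. They took 35.7% of the TAZ4SA peaks (25 of 70), against 17.7%, and 36.6% of the TAZ-CAMTA1 peaks (26 of 71), against 17.8%. They also held 2 of the 12 TFE3 peaks, against 9.41%, and none of the 4 CAMTA1 peaks, against 9.21%. The median fold enrichment inside and outside the segments was 4.82 and 4.86 for YAP5SA, 4.12 and 4.27 for YAP-TFE3, 4.35 and 4.85 for TAZ-CAMTA1, and 5.65 and 5.33 for TAZ4SA. No interval was computed for these medians, and whether strength differed inside the segments was not tested.

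The segment with the most sites, chr20:52352028-52566293, had 18 sites from 12 YAP-TFE3, 9 YAP5SA, 1 TAZ4SA and 1 TAZ-CAMTA1 peaks. All 23 of its peaks were of modest strength, with a highest fold enrichment of 7.04 and a median of 4.05, and no site in it was found with 3 constructs. At its left edge YAP-TFE3 peaks at 52352028 to 52352376 and at 52352894 to 52353092 lay on either side of a site at 52352495 to 52352824 that had a TAZ-CAMTA1 and a YAP5SA peak, so that neighbouring constructs were found within about 1 kb without sharing a base.

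The segment with the next most sites, chr20:45886054-46130598, had 15 sites in the longest stretch of all, 245 kb, from 10 YAP5SA, 7 YAP-TFE3, 2 TAZ-CAMTA1, 1 TAZ4SA and 1 TFE3 peaks. Of its sites 11 were found with a single construct, and they stood on both sides of the site at 45987591 to 45988519 where all 4 long lists had a peak. At that site the fold enrichment was 8.53 with TAZ-CAMTA1, 7.11 with YAP5SA, 6.08 with YAP-TFE3 and 5.23 with TAZ4SA.

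The segment chr20:22693083-22842345 had 12 sites and 9 peaks each of YAP5SA and YAP-TFE3. Its strongest peaks were of YAP5SA: 11.5-fold at 22776026 to 22777381, where YAP-TFE3 reached 5.18-fold, and 8.69-fold at 22755985 to 22756785, where TAZ4SA had 7.47-fold, YAP-TFE3 3.91-fold and TAZ-CAMTA1 3.32-fold. At every site of this segment with peaks of both, YAP5SA had the higher fold enrichment. The segment chr20:33787811-33915621 had 11 sites, 6 of them found with 2 or more constructs, and 8 YAP-TFE3 and 7 YAP5SA peaks.

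The remaining segments named by number of sites had 10 sites each. In chr20:4451084-4614677 there were 9 YAP5SA, 4 YAP-TFE3, 3 TAZ4SA and 2 TAZ-CAMTA1 peaks, and in chr20:36712888-36846390 there were 10, 4, 2 and 1. In chr20:4018773-4115882 there were 6 YAP5SA, 5 YAP-TFE3, 2 TAZ-CAMTA1 and 1 TAZ4SA peaks. A segment with the opposite make-up, singled out after its values were seen, was chr20:48902263-48989794, where 9 sites held 8 YAP-TFE3 peaks and 1 YAP5SA peak. The 1 YAP5SA peak lay at 48929541 to 48929909, at 6.47-fold, where TAZ-CAMTA1 reached 9.09-fold, TAZ4SA 5.41-fold and YAP-TFE3 4.95-fold.

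**Figure D3:**
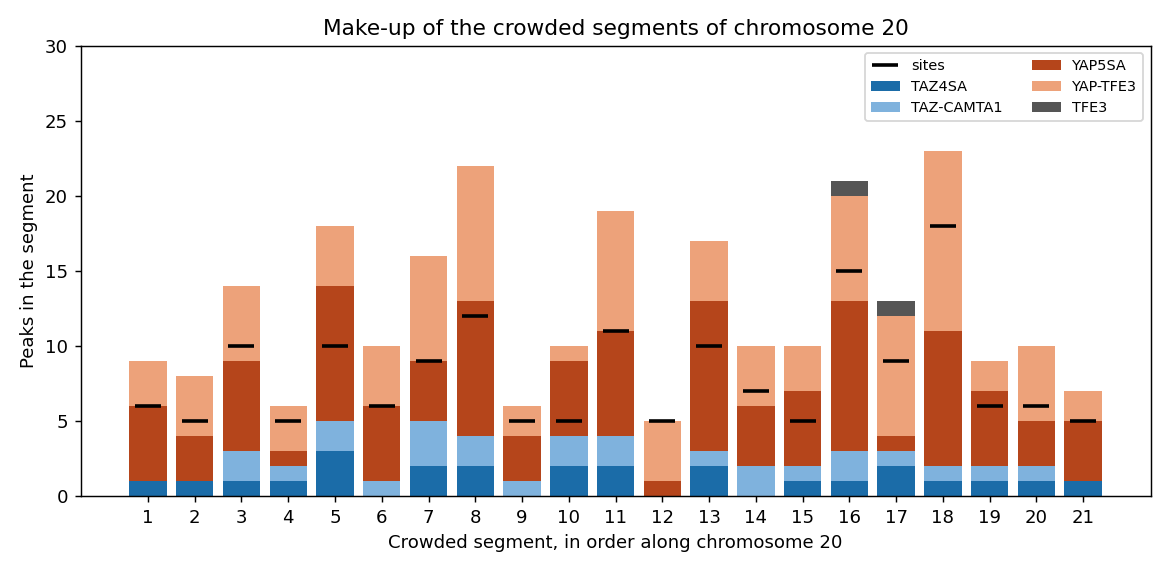
Stacked bars give the number of peaks of each construct (colours) in the 21 crowded segments, numbered in order along the chromosome on the x axis, and black dashes give the number of sites after overlapping peaks were joined. Segment 18 has the most sites (18) and segment 17 holds 8 YAP-TFE3 peaks and 1 YAP5SA peak, while segments 5 and 13 hold more YAP5SA than YAP-TFE3 peaks.

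In each long list the median chromosome 20 peak was somewhat weaker than the median peak elsewhere, with intervals that overlapped. Strength is given as fold enrichment, the caller's ratio of scaled fragments at the summit to the local background, with 1 added to each. Fragment counts are given before scaling, so they cannot be compared between the TAZ and the YAP lists. The median was 5.33 with TAZ4SA (4.61 to 5.96), against 6.01 on the other chromosomes, and 4.54 with TAZ-CAMTA1 (4.15 to 5.15), against 5.11. It was 4.82 with YAP5SA (4.62 to 5.01), against 4.90, and 4.20 with YAP-TFE3 (4.05 to 4.42), against 4.42. The intervals elsewhere were 5.77 to 6.26, 5.02 to 5.38, 4.89 to 4.96 and 4.35 to 4.47 in the same order. The fragments over the summit were no fewer on chromosome 20 in the TAZ lists, at a median of 23.5 against 22 for TAZ4SA and 20 against 19 for TAZ-CAMTA1, whereas the background under them was the higher one given above. For YAP5SA the medians were 66 and 68 fragments and for YAP-TFE3 56 and 59.

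The strongest peaks lay in a few places. With TAZ4SA the top peak by q was chr20:49157305-49157796, with 88 fragments at the summit and 20.6-fold enrichment. YAP5SA had its own top peak there, at 49157388 to 49158066, with 195 fragments and 14.2-fold enrichment. The fusions had weaker peaks at this site, 7.41-fold with TAZ-CAMTA1 and 6.02-fold with YAP-TFE3. The second peak of both activated parents was also common: TAZ4SA reached 24.04-fold at 59760991 to 59761669, the highest fold enrichment of any chromosome 20 peak, and YAP5SA 13.3-fold at 59761007 to 59761821, with a YAP-TFE3 peak and no TAZ-CAMTA1 peak on the same site. The next TAZ4SA peak, at 8995838 to 8996913, was 13.4-fold and was shared with YAP5SA and YAP-TFE3. The next YAP5SA peak, at 30307662 to 30308626, was 12.1-fold and was overlapped by TAZ4SA and TAZ-CAMTA1.

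The strongest YAP-TFE3 peaks were elsewhere. The top one, chr20:49056698-49057458, had 217 fragments at the summit and 16.5-fold enrichment and was overlapped by no other list; it stood 11th by q in the whole YAP-TFE3 list and was the strongest YAP-TFE3 peak of the chromosome that overlapped neither parent. The next, at 62065848 to 62066952, reached 15.4-fold at a site where every construct but CAMTA1 had a peak. The peak after that, at 49261954 to 49262810, was 14.7-fold and was shared with YAP5SA, at 6.97-fold. The top YAP-TFE3 peak and the top TAZ4SA and YAP5SA peak therefore lay in the same bin, about 100 kb apart, at different sites.

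On chromosome 20 the highest fold enrichment of a TAZ-CAMTA1 peak, 9.09, was below that of the other long lists. On the other chromosomes the order differed, with a highest value of 73.8 for TAZ-CAMTA1, 50.8 for TAZ4SA, 28.1 for YAP5SA and 23.8 for YAP-TFE3. By q the top TAZ-CAMTA1 peak of chromosome 20 was chr20:5730964-5731922, with 41 fragments and 8.94-fold enrichment. It was overlapped by YAP-TFE3 and by neither parent of TAZ-CAMTA1. The peak at 48929545 to 48929948 was 9.09-fold and that at 31062789 to 31063322 was 6.44-fold, on a local background of 6.45 fragments per base; both were overlapped by TAZ4SA, YAP5SA and YAP-TFE3.

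Sharing was first compared between each fusion and its parents. With TAZ-CAMTA1, 25 of 71 chromosome 20 peaks overlapped a TAZ4SA peak (35.2%; 25.1% to 46.8%), against 32.2% on other chromosomes. None of the 71 overlapped a CAMTA1 peak, against 0.27% elsewhere; taking 3 counts as the limit for a count of 0, this allows a share of up to 4.23% (Wilson upper bound 5.13%). With YAP-TFE3, 127 of 269 overlapped a YAP5SA peak (47.2%; 41.3% to 53.2%), against 40.7%, and 9 of 269 a TFE3 peak (3.35%; 1.77% to 6.24%), against 7.4%. The YAP-TFE3 peaks of chromosome 20 were thus shared more often with YAP5SA than those elsewhere, with a difference of 6.49 points (0.349 to 12.7), and less often with TFE3, with a difference of −4.06 points (−5.91 to −1.04). The last is a share of the YAP-TFE3 list, which was 4.04 times as dense on chromosome 20 as elsewhere, against 1.92 times for TFE3. Counted from the TFE3 list, 9 of 12 peaks were shared (75%), against 79.4%, with an interval of the difference from −33.0 to 12.4 points. Neither parent overlapped 46 of 71 TAZ-CAMTA1 peaks (64.8%), against 67.6%, or 137 of 269 YAP-TFE3 peaks (50.9%), against 54.7%, and both of these differences had intervals that included 0.

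Peaks were also shared across the TAZ and YAP families. TAZ-CAMTA1 peaks overlapped a YAP5SA peak in 41 of 71 cases (57.7%; 46.2% to 68.5%), against 55.9% elsewhere, and a YAP-TFE3 peak in 40 of 71 (56.3%; 44.8% to 67.3%), against 50.4%. These lists are several times longer than the TAZ4SA list, and with the YAP-TFE3 list shortened to its strongest 1166 peaks the last share was 29.6%. TAZ4SA peaks overlapped a YAP5SA peak in 53 of 70 cases (75.7%; 64.5% to 84.2%), against 70.8%, a TAZ-CAMTA1 peak in 25 of 70 (35.7%), against 32.8%, and a YAP-TFE3 peak in 41 of 70 (58.6%; 46.9% to 69.4%), against 43.7%. The last of these was higher on chromosome 20 by 14.9 points (2.81 to 26.1).

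Seen from the longer lists, 126 of 291 YAP5SA peaks overlapped a YAP-TFE3 peak (43.3%; 37.7% to 49.0%), against 35.9%, a difference of 7.41 points (1.61 to 13.4). A TAZ4SA peak overlapped 53 of 291 YAP5SA peaks (18.2%), against 22.2%, and 42 of 269 YAP-TFE3 peaks (15.6%), against 15.6%. A TAZ-CAMTA1 peak overlapped 41 of 291 YAP5SA peaks (14.1%), against 17.9%, and 40 of 269 YAP-TFE3 peaks (14.9%), against 18.5%. In these 4 comparisons with the TAZ lists the interval of the difference included 0. The intervals of all 30 ordered pairs of construct lists were computed one pair at a time, without adjustment for their number.

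**Figure D4:**
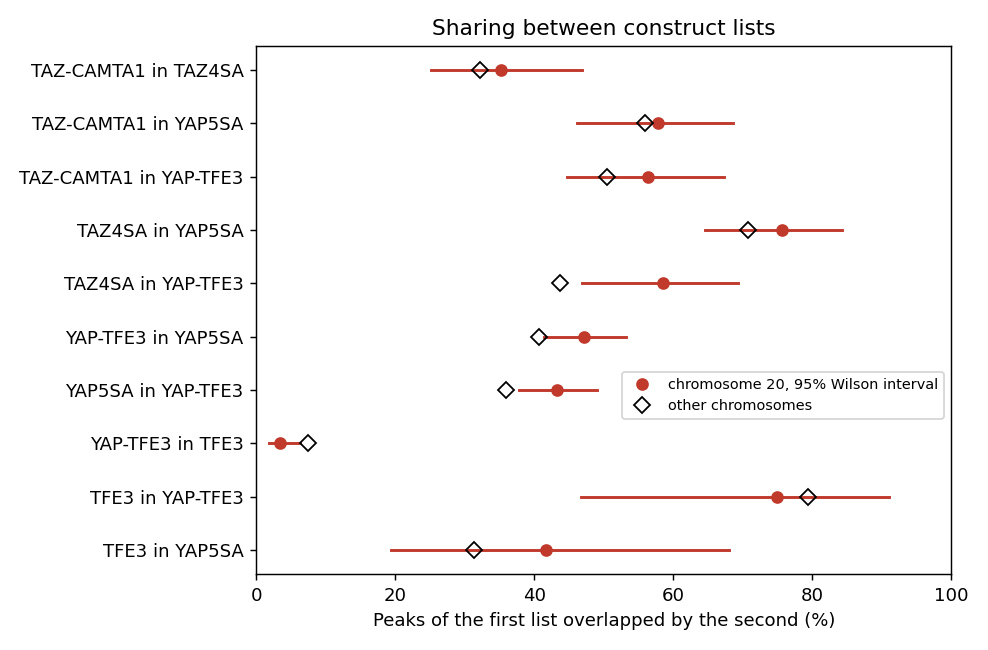
For 10 ordered pairs of lists (y axis), red points give the percentage of chromosome 20 peaks of the first list that share at least 1 bp with a peak of the second (x axis), lines their 95% Wilson intervals and open diamonds the percentage on the other chromosomes. The diamond lies outside the interval for TAZ4SA in YAP-TFE3, YAP-TFE3 in YAP5SA, YAP5SA in YAP-TFE3 and YAP-TFE3 in TFE3.

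Taken by site, 164 of the 474 sites were found with 2 or more constructs (34.6%; 30.5% to 39.0%), against 33.2% on other chromosomes. YAP5SA alone made 143 sites (30.2%, against 28.9% elsewhere) and YAP-TFE3 alone 126 (26.6%, against 25.2%). TAZ-CAMTA1 alone made 22 (4.64%, against 5.60%) and TAZ4SA alone 14 (2.95%, against 4.02%). For each of these constructs alone the interval of the difference included 0. The combination of YAP5SA and YAP-TFE3 with no other construct made 76 sites, 16.03% of those on chromosome 20 and 8.90% of those elsewhere, a difference of 7.14 points (4.02 to 10.8). Among the next most frequent combinations of constructs, all 4 long lists without CAMTA1 or TFE3 made 21 sites (4.43%, against 4.004%), TAZ4SA with YAP5SA and YAP-TFE3 made 15 (3.16%, against 2.90%), and TAZ4SA with YAP5SA made 13 (2.74%, against 4.61%), each with an interval of the difference that included 0. CAMTA1 alone (3 sites) made 0.633% of the sites on chromosome 20, against 2.24%, with an interval of the difference from −2.19 to −0.349 points. YAP-TFE3 with TFE3 and no other construct (4 sites) made 0.844%, against 2.21%, with an interval from −2.02 to −0.0148 points. These are shares of all sites, whose number per Mb was highest on chromosome 20. Per Mb, CAMTA1 and TFE3 peaks were not fewer on chromosome 20, at 1.21 and 1.92 times the density elsewhere.

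The sites found with the most constructs were chr20:62065848-62066952 and chr20:55362374-55364059, each with a peak of all constructs but CAMTA1. At the former, fold enrichment was 15.4 with YAP-TFE3, 10.2 with YAP5SA, 7.13 with TAZ4SA, 5.27 with TAZ-CAMTA1 and 5.15 with TFE3. At the latter the 4 long lists lay close together, between 5.33 with TAZ4SA and 7.96 with YAP-TFE3, and TFE3 was at 3.57. On other chromosomes this combination made 3 of 6069 sites, and the interval of the difference from the 2 of 474 here ran from 0.0517 to 1.48 points. Of the sites with 4 constructs, the 3 with the highest lowest value were the top TAZ4SA site given above, chr20:46924082-46924970, with values from 6.0 (YAP-TFE3) to 10.1 (YAP5SA), and chr20:32496246-32497724, with values from 5.70 (YAP-TFE3) to 9.62 (TAZ4SA).

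The full-length second parents had few peaks. Of the 12 TFE3 peaks, 9 overlapped a YAP-TFE3 peak (75%; 46.8% to 91.1%), against 79.4% elsewhere, 5 a YAP5SA peak, against 31.4%, and 2 no other list. A TAZ4SA peak overlapped 2 of the 12, against 3.14%, a TAZ-CAMTA1 peak 2, against 2.79%, and a CAMTA1 peak 1, against 2.09%. Counted from the other side, TFE3 overlapped 2 of 70 TAZ4SA peaks (0.821% elsewhere), 2 of 71 TAZ-CAMTA1 peaks (0.719% elsewhere) and 5 of 291 YAP5SA peaks (2.63% elsewhere). With 12 TFE3 peaks these shares have wide intervals, and both TFE3 peaks that TAZ constructs overlapped lay at the sites of 5 constructs given above. The strongest was chr20:18118428-18119101, with 124 fragments and 11.1-fold enrichment, shared with YAP5SA and YAP-TFE3. Those at 23342142 to 23342703, at 8.55-fold, and at 47538078 to 47538437, at 8.12-fold, came next, and the remaining 9 had a fold enrichment between 3.57 and 7.30. The 9 YAP-TFE3 peaks that overlapped TFE3 had a median fold enrichment of 7.96 and the other 260 of 4.20.

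Of the 4 CAMTA1 peaks, only chr20:23342130-23342711 was overlapped by another list. It had 47 fragments and 10.6-fold enrichment and coincided with the second TFE3 peak (TFE3 overlapped 3.95% of CAMTA1 peaks elsewhere) and with a YAP-TFE3 peak (6.58% elsewhere). The others, at 2633213 to 2633549 (5.47-fold), 3870047 to 3870475 (4.84-fold) and 57581374 to 57581627 (5.15-fold), were found with CAMTA1 alone. No TAZ-CAMTA1 peak overlapped any of the 4 (1.97% elsewhere), nor did a TAZ4SA peak (0.658% elsewhere) or a YAP5SA peak (4.61% elsewhere). In the same way CAMTA1 overlapped none of 70 TAZ4SA peaks (0.0912% elsewhere), for which 3 counts allow up to 4.29% and the Wilson bound is 5.20%, none of 291 YAP5SA peaks (0.202% elsewhere), for which these limits are 1.03% and 1.30%, and 1 of 269 YAP-TFE3 peaks (0.326% elsewhere).

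Shared peaks were stronger than peaks found with a single construct. TAZ4SA peaks had a median fold enrichment of 3.51 (3.35 to 4.02) when no other construct list overlapped them (14 peaks) and of 5.88 (5.33 to 7.13) when at least 1 did (56 peaks). For YAP5SA the medians were 4.25 (4.17 to 4.62) over 143 peaks and 5.31 (4.96 to 5.89) over 148, and the 23 peaks overlapped by 3 or more lists reached 7.83 (6.61 to 8.69). For YAP-TFE3 they were 3.97 (3.82 to 4.20) over 126 peaks and 4.65 (4.27 to 5.03) over 143. For TAZ-CAMTA1 they were 4.04 (3.69 to 5.09) over 22 peaks and 5.07 (4.28 to 5.85) over 49, with intervals that overlap. The top YAP-TFE3 peak, found with no other construct, was an exception to this order.

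**Figure D5:**
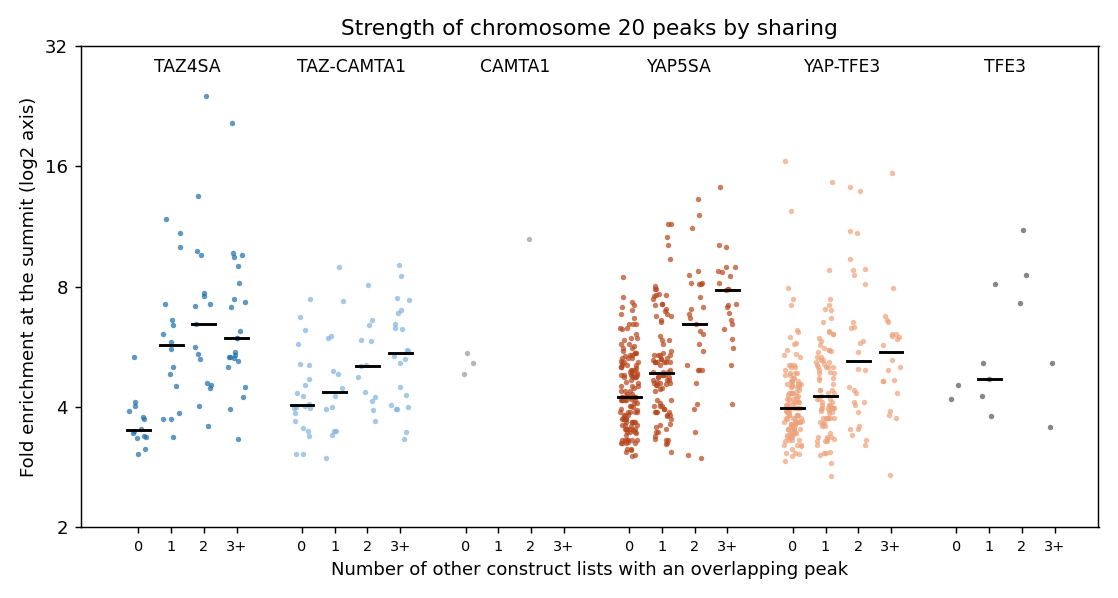
Each point is a chromosome 20 peak; the y axis gives its fold enrichment at the summit on a log2 axis and the x axis, within each construct list, the number of other construct lists with an overlapping peak, with black bars at the medians of groups of at least 5 peaks. Medians rise from 4.25 for YAP5SA peaks with no overlap to 7.83 for those with 3 or more, and the highest YAP-TFE3 point, at 16.5, is in the group with no overlap.

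Where peaks of a pair of lists overlapped, their summits were mostly close. The median distance between summits was 18 bp for 53 TAZ4SA peaks and their YAP5SA partners, and 86.8% lay within 100 bp. It was 21 bp for 25 TAZ-CAMTA1 and TAZ4SA pairs, 49 bp for 127 YAP-TFE3 and YAP5SA pairs and 14 bp for 9 TFE3 and YAP-TFE3 pairs. The fusions lay farther from each other, with a median of 73 bp over 40 pairs and 57.5% within 100 bp. Fold enrichment in the 53 TAZ4SA and YAP5SA pairs had a Spearman correlation of 0.61, and in the 40 pairs of the fusions of 0.49. It was 0.33 in the 127 YAP-TFE3 and YAP5SA pairs, 0.33 in the 9 TFE3 and YAP-TFE3 pairs and 0.18 in the 25 TAZ-CAMTA1 and TAZ4SA pairs. These correlations are across peaks of pooled libraries and are descriptions.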

How the data were processed

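SW872 ChIP-seq peak lists were used as deposited. Per the study's methods, the authors pooled reads across replicates, trimmed them with Atropos, aligned them to GRCh37 with BWA-MEM, removed multi-mapping reads and greylisted regions, and called peaks with macs2 from whole fragments; the submitters' notes name hg38. Which control set each local background is not given in the sources used here. The authors deposited fold enrichment (a ratio), −log10 p and −log10 q, and a display score that was not used; the highest q was 0.0993.

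Peaks overlapped when they shared at least 1 bp. Bins of 2 Mb were assigned by summit. The whole number of fragments, the scaling and the local background were recovered from fold enrichment and p; a single solution was found for 96.8% to 99.9% of peaks per list, and for 715 of the 717 described here. Recovery, overlaps and runs were tested on simulated data. Shares have Wilson intervals, a share of 0 also the limit that 3 counts give, differences Newcombe intervals and medians order-statistic intervals. Densities use the lengths of the supplied assembly. The members, lists and rules were chosen with earlier results of these data known. Named were the 3 peaks with the highest −log10 q per list, every peak of a list with 5 or fewer, the top fusion peaks in neither parent, the 5 sites with the most constructs, the 5 segments with the most sites (with ties), the 3 fullest bins per long list, and empty bins. No test was made, because replicates were pooled and peaks are not replicates. Scripts ran in Python 3.11.15 with scipy 1.17.1, numpy 2.4.6 and pandas 2.3.3, and figures were drawn with matplotlib 3.10.9.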

Additional observations from a re-analysis of the deposited data

How the results depend on the processing

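No paired analysis was possible because each construct has a single list from pooled replicates. Of 77 alternatives for 36 results, 64 stayed within the interval of the reported share or median or within 1.5 times the reported count; 4 of the 77 were chosen after seeing the data. With 50% reciprocal overlap, overlap by YAP5SA was 33.5% for YAP-TFE3, 48.6% for TAZ4SA and 42.3% for TAZ-CAMTA1 peaks, and overlap of TAZ-CAMTA1 by YAP-TFE3 was 38.0%. With the second list shortened to its 1166 strongest peaks, these were 21.6%, 52.9%, 40.8% and 29.6%. Among the 1166 strongest YAP-TFE3 peaks, 6.26% lay on chromosome 20. The share of sites in crowded segments was 18.6% with gaps up to 25 kb and 51.3% with gaps up to 100 kb. Added after seeing the data, it was 29.9% without the YAP-TFE3 list and 23.6% without the YAP5SA list. Leaving out a replicate was not possible. Values for CAMTA1 (4 peaks) and TFE3 (12 peaks) rest on few peaks.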
